A study of Mus musculus with 12 samples.

Results

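Oxidative phosphorylation is run by 5 enzyme complexes of the inner mitochondrial membrane, and most of their subunits are encoded in the nucleus. The genes described here were those whose single gene symbol in the array annotation begins with Nduf followed by a, b, c, s or v, with Uqcr, with Cox4 to Cox8 or with Atp5, together with Sdha, Sdhb, Sdhc and Sdhd. There were 89 of them among the 19937 genes that the array annotation names alone for at least 1 probe set (a group of short probes summarized to 1 value), and 113 of the 28192 probe sets on the array read them. A gene with several probe sets was represented by the brightest on average. By the known place of their proteins, 80 of the 89 genes encode enzyme subunits, namely 34 of complex I, 4 of complex II, 8 of complex III, 17 of complex IV and 17 of complex V. The other 9 are the complex I assembly factors Ndufaf1 to Ndufaf7 and the paralogues Ndufa4l2 and Cox7a2l. Mitochondrially encoded subunits do not match these names and were not analysed here. Cyc1, the nuclear gene of cytochrome c1 in complex III, does not match either and is counted below among the partners of the chain.

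Complexes I and II take electrons from NADH and succinate and pass them through ubiquinone to complex III, cytochrome c and complex IV, which reduces oxygen. Complexes I, III and IV pump protons on the way, and complex V, the ATP synthase, uses the proton gradient to make ATP. Neurons depend heavily on this pathway for ion pumping and synaptic transmission, and fast-spiking interneurons are known for their dense mitochondria.

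GFP-positive cells were sorted from the cortex of C57BL6 mice, and Affymetrix mouse gene arrays were used to measure their RNA, in 4 groups of 3 arrays that the labels call biological replicates (A, B and C). Interneurons came from Nkx2-1Cre;RCE:LoxP cortices at postnatal day 10 (IN P10) and at birth (IN P0), and pyramidal cells from somatosensory cortices of NexCre;RCE:LoxP mice at postnatal day 12 (Pyr P12) and at birth (Pyr P0). Nkx2-1 drives Cre in progenitors of the medial ganglionic eminence and their progeny, and Nex (Neurod6) in young excitatory neurons. Population, dissected region and Cre line cannot be told apart, nor can population and age in IN P10 against Pyr P12, and the number of animals behind an array is not given in the sources used here. All 4 groups carry a Cre and the RCE:LoxP reporter, and all cells passed through papain digestion and sorting.

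The arrays of a group correlated at 0.995 to 0.999 over all probe sets and those of different groups at 0.941 to 0.983. An array's background was set at the 95th percentile of its 1208 probe sets for odorant and vomeronasal receptors, at log2 values of 7.13 to 7.45, and 88 of the 89 genes exceeded it on at least 1 array. The 6 measured pan-interneuron markers averaged 12.01 to 12.06 on IN P10 arrays, 11.88 to 12.02 on IN P0 arrays, 7.65 to 7.78 on Pyr P12 arrays and 8.60 to 9.05 on Pyr P0 arrays. The 9 pyramidal markers averaged 7.88 to 7.93, 8.91 to 9.41, 11.11 to 11.15 and 11.09 to 11.20 on the same groups in that order. The 6 markers of oligodendrocyte precursors, all above background in every group, averaged 9.85 to 10.59 on IN P10 arrays and 10.27 to 10.59 on IN P0 arrays, while Pyr P12 arrays had 7.75 to 7.97 and Pyr P0 arrays 7.74 to 8.08. The 5 myelin markers averaged 9.30 to 9.65 on IN P10 arrays and 8.12 to 8.17 on IN P0 arrays, while Pyr P12 arrays had 8.10 to 8.14 and Pyr P0 arrays 7.71 to 7.82. For 7 astrocyte markers the averages were 7.63 to 7.83, 7.48 to 7.58, 8.12 to 8.29 and 7.37 to 7.41 in the same order. The 5 dissociation and stress genes averaged 9.21 to 9.36 on IN P10 arrays and 9.40 to 9.74 on IN P0 arrays, while Pyr P12 arrays had 9.51 to 9.70 and Pyr P0 arrays 8.86 to 9.10. The part of these cells and of stress in the results below was not tested, and in sorted pools a change in the share of a cell type and a change in RNA per cell cannot be told apart.

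The nuclear genes of the respiratory chain rose with age in both populations. Interneurons at P10 had 79 of the 89 genes higher than at P0 and 1 lower, at an adjusted p under 0.05 (limma, Benjamini-Hochberg adjustment over 22961 probe sets). Over all probe sets tested, 22.3% rose and 23.1% fell in that comparison. In Pyr P12 against Pyr P0, 65 genes rose and 1 fell, against 33.0% and 21.7% of all probe sets. The median log2 fold change of the 89 genes was 0.55 in interneurons and 0.38 in pyramidal cells, while the medians over all probe sets were 0.0019 and 0.063. All 3 arrays of IN P10 lay above all 3 of IN P0 for 80 genes, as they did for 28.8% of all probe sets. All 3 Pyr P12 arrays lay above all 3 Pyr P0 arrays for 71 genes and for 35.6% of all probe sets. The changes were mostly below 2-fold. Calls with a fold above 2 numbered 6 in interneurons, where 4.19% of all probe sets passed, and 3 in pyramidal cells, where 5.68% passed. Of all probe sets called in Pyr P12 against Pyr P0, 60.3% were higher, a share that was 48.7% when each array was centred on the median of the probe sets above background, and 62 of the 89 genes then rose. With 3 arrays per group an exact permutation test of a single gene cannot go below p = 0.1, so the calls rest on the fit across all probe sets.

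**Figure D1:**
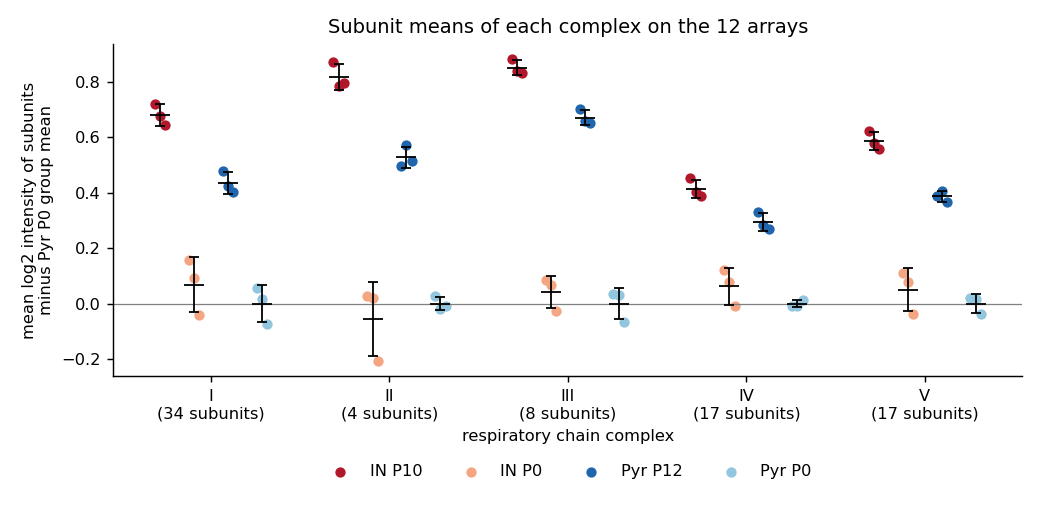
Mean log2 intensity of the subunits of each complex on each array, after subtracting the mean of the 3 Pyr P0 arrays; points are arrays, horizontal marks the group mean and bars the SD (n = 3). In every complex the 3 IN P10 arrays lie highest, the 3 Pyr P12 arrays next, and the IN P0 and Pyr P0 arrays lie lower and overlap.

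In all 5 complexes IN P10 stood highest and Pyr P12 next. Averaged over the 80 subunits and set against the mean of Pyr P0, IN P10 arrays stood at 0.63 ± 0.035 on the log2 scale and IN P0 arrays at 0.055 ± 0.086 (SD, n = 3 each). Pyr P12 arrays stood at 0.42 ± 0.027 and Pyr P0 arrays had an SD of 0.039 around 0. The complex III means were the highest of the older groups, at 0.85 ± 0.028 for IN P10 and 0.041 ± 0.059 for IN P0, with Pyr P12 at 0.67 ± 0.026. The complex IV means were the lowest of the older groups, at 0.41 ± 0.033 for IN P10 and 0.063 ± 0.066 for IN P0, with Pyr P12 at 0.29 ± 0.032. They include 5 forms known from other tissues that were not called in interneurons and are listed below. The array of IN P0 replicate C lay below the other IN P0 arrays in all 5 complexes, and without it 73 of the 89 genes rose in IN P10. Group by group, the highest mean was that of IN P10 for 65 of the 89 genes, of Pyr P12 for 19, of IN P0 for 2 and of Pyr P0 for 3. The same counts over all probe sets are not given here, so these cannot be set against the array.

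The stretches of DNA before the start sites are shown for Sdhd and Uqcr11, which passed a 2-fold change with age, and for the 3 genes of the c subunit of complex V, Atp5g1, Atp5g2 and Atp5g3, which moved differently from each other. Each run is the 250 bases before the start, 5′ to 3′ on the strand of the gene, from RefSeq (GRCm38.p6), with matches to motifs of factors known for binding respiratory chain promoters in capitals.
Sdhd (chr9:50603850-50604099, minus strand): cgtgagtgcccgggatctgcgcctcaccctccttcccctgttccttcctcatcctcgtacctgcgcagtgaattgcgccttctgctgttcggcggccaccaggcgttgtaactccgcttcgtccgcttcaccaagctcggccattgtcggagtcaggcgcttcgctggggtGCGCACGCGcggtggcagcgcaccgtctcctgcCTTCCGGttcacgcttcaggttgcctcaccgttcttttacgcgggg
Uqcr11 (chr10:80406822-80407071, minus strand): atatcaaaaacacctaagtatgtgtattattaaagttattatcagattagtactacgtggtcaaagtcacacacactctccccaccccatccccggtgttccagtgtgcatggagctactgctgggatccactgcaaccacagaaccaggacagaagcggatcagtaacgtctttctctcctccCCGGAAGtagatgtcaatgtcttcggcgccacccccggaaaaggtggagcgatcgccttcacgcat
Atp5g1 (chr11:96075632-96075881, minus strand): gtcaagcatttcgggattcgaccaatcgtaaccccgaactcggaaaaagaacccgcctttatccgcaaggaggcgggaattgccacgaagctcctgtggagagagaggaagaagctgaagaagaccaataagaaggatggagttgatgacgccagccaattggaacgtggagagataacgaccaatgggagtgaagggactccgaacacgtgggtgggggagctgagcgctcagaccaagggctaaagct
Atp5g2 (chr15:102671048-102671297, minus strand): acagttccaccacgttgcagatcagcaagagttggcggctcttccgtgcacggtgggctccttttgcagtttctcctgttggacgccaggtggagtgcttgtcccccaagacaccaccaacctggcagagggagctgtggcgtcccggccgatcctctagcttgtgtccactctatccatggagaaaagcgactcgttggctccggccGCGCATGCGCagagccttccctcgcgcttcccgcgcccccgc
Atp5g3 (chr2:73911327-73911576, minus strand): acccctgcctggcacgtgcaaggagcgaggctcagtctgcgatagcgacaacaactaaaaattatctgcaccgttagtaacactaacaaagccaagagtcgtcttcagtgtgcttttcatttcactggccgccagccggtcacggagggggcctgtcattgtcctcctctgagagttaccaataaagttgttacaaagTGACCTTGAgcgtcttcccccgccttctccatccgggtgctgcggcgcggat
The motifs searched on both strands were GCGCANGCG for NRF1, CCGGAAG for GABPA, TCAAGGTCA for the estrogen-related receptors and AAGATGGCG for YY1. The NRF1 string is nearly its own reverse complement, so that 1 site can match on both strands. Sdhd held an NRF1 match ending 71 bases before the start and a GABPA match ending 40 bases before it, Uqcr11 a GABPA match ending at 60, Atp5g2 a pair of overlapping NRF1 matches ending at 34 and 33 and Atp5g3 an estrogen-related receptor match ending at 44. Atp5g1, also past 2-fold, held none of the 4 letter strings in this window. Of the genes past 2-fold not shown, Ndufs8 and Uqcrc1 held none either, and Ndufs5 held an NRF1 match ending at 90. Cox6a2 had no promoter sequence at hand. A promoter sequence was at hand for 73 of the 89 genes. An NRF1 match stood in 14 of them (19.2%), compared with 8.74% of the 15613 genes on the array with a promoter sequence, and a GABPA match in 13 (17.8%), compared with 10.7%. The receptor and YY1 strings each stood in 1 of the 73 (1.37%), compared with 0.333% and 0.909%. With age in interneurons, the 14 genes with an NRF1 match had a median log2 fold change of 0.56 and the 59 without also had 0.56. In Pyr P12 against Pyr P0 the medians were 0.43 and 0.39. The 13 genes with a GABPA match had medians of 0.54 in interneurons and 0.35 in pyramidal cells, and the 60 without had 0.58 and 0.40.

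Complex I, the NADH dehydrogenase, rose in 33 of 34 subunits in IN P10 against IN P0, with a median of 0.58, and in 26 of 34 in Pyr P12 against Pyr P0, with a median of 0.41. None fell. The 6 core subunits measured, most of which carry the flavin or iron-sulfur clusters, all rose in both populations. Their medians were 0.83 in interneurons and 0.47 in pyramidal cells, and the 28 accessory subunits had medians of 0.54 and 0.40. Ndufs8, a core subunit with iron-sulfur clusters, measured 11.92, 12.14 and 12.17 in IN P10, against 10.88, 10.89 and 10.78 in IN P0, on the log2 scale. The groups did not overlap, and the change was 2.34-fold (log2 fold change 1.22 ± 0.074, adjusted p = 1.22e-08). In pyramidal cells the same gene measured 11.65, 11.63 and 11.60 in Pyr P12, against 10.80, 10.57 and 10.66 in Pyr P0 (0.95 ± 0.074, adjusted p = 1.06e-07). Ndufv1, the subunit that binds NADH, measured 11.89, 11.82 and 11.80 in IN P10, against 11.04, 11.11 and 10.96 in IN P0 (0.80 ± 0.055, adjusted p = 4.12e-08). Its pyramidal values, 11.40, 11.48 and 11.44 in Pyr P12, against 11.16, 11.26 and 11.17 in Pyr P0, also stood apart, by a smaller 0.24 (adjusted p = 0.00217). Ndufs1, the largest core subunit, rose by 0.90 ± 0.079 in interneurons and by 0.31 ± 0.079 in pyramidal cells.

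Accessory subunits of complex I were less uniform. Ndufs5, of the membrane arm, was the complex I gene past 2-fold in pyramidal cells, with 10.29, 10.49 and 10.26 in Pyr P12, against 9.39, 9.29 and 9.21 in Pyr P0 (1.05 ± 0.069, adjusted p = 1.86e-08). Interneurons had 10.13, 10.03 and 9.99 in IN P10, against 9.19, 9.15 and 9.22 in IN P0 (0.86 ± 0.069, adjusted p = 1.77e-07), again without overlap. Ndufa5, of the matrix arm, measured 10.64, 10.71 and 10.59 in Pyr P12, against 9.56, 9.82 and 9.65 in Pyr P0 (0.97 ± 0.070, adjusted p = 4.83e-08), a 1.96-fold change, while its change in IN P10 against IN P0 was 0.44 ± 0.070. The opposite order held for Ndufa6, also of the matrix arm, with 11.56, 11.40 and 11.13 in IN P10, against 10.97, 10.78 and 10.61 in IN P0 (0.58 ± 0.10, adjusted p = 0.000371). Its pyramidal values were 10.65, 10.68 and 10.67 in Pyr P12, against 10.84, 10.87 and 10.70 in Pyr P0, and the difference of -0.14 did not pass the test (adjusted p = 0.298). Ndufa7 passed in neither population, at 0.083 ± 0.069 and 0.086 ± 0.069. The other complex I subunits without a call in pyramidal cells were Ndufa3, Ndufb6, Ndufb7, Ndufb10, Ndufc1 and Ndufv3, at log2 fold changes of 0.031 to 0.16. A slightly dimmer second probe set of Ndufc1 was called higher in both populations, by 0.66 in pyramidal cells and 0.70 in interneurons.

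**Figure D2:**
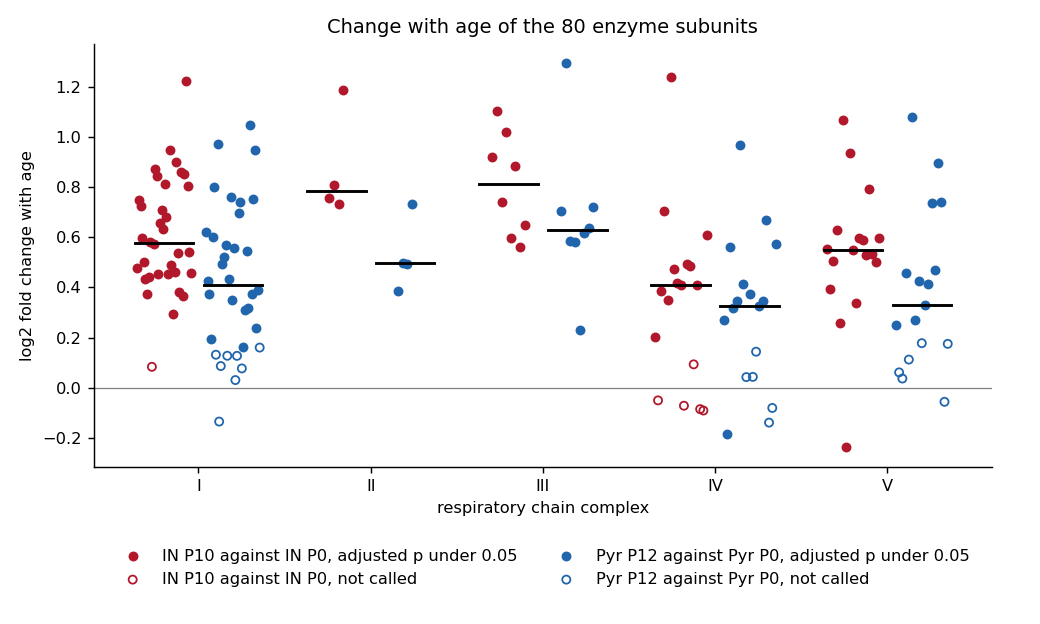
Log2 fold change with age of the 80 subunits by complex, in IN P10 against IN P0 (red, left in each pair) and Pyr P12 against Pyr P0 (blue, right); filled points had an adjusted p under 0.05, open points did not, and bars mark medians. All complex II and III subunits are filled in both populations, and the medians are higher in interneurons in every complex.

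All 4 subunits of complex II, succinate dehydrogenase, which also works in the citric acid cycle and is wholly nuclear-encoded, rose in both populations, with medians of 0.78 in interneurons and 0.50 in pyramidal cells. Sdhd, a membrane anchor whose promoter is printed above, measured 11.35, 11.24 and 11.14 in IN P10, against 10.09, 10.27 and 9.82 in IN P0 (1.19 ± 0.098, adjusted p = 2.52e-07), a 2.28-fold change, with no overlap. It measured 10.79, 10.94 and 10.80 in Pyr P12, against 10.15, 10.02 and 10.17 in Pyr P0 (0.73 ± 0.098, adjusted p = 2.31e-05), also with no overlap. Sdha, the flavoprotein, rose by 0.76 ± 0.063 in interneurons and by 0.38 ± 0.063 in pyramidal cells. Sdhb, the iron-sulfur subunit, changed by 0.81 ± 0.057 and 0.50 ± 0.057, and Sdhc, the other anchor, by 0.73 ± 0.068 and 0.50 ± 0.068, in the same order of populations.

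All 8 subunits counted here for complex III, the cytochrome bc1 complex, rose in both populations, with medians of 0.81 in interneurons and 0.63 in pyramidal cells. Cyc1, which the names miss, rose by 0.96 ± 0.067 in interneurons and 0.49 ± 0.067 in pyramidal cells. Uqcr11, a small subunit, measured 11.11, 11.30 and 11.34 in IN P10, against 10.27, 10.09 and 10.09 in IN P0 (1.10 ± 0.070, adjusted p = 2.00e-08), a 2.15-fold change. It had the largest pyramidal change of the 89 genes, with 11.44, 11.41 and 11.36 in Pyr P12, against 10.10, 10.16 and 10.05 in Pyr P0 (1.29 ± 0.070, adjusted p = 2.76e-09), a 2.45-fold change. Neither pair of groups overlapped, and a second probe set of Uqcr11 rose too, by 0.98 and 0.85. Uqcrc1, a core protein, measured 12.32, 12.37 and 12.50 in IN P10, against 11.41, 11.40 and 11.31 in IN P0 (1.02 ± 0.061, adjusted p = 1.23e-08), a 2.03-fold change without overlap, and rose by 0.58 ± 0.061 in pyramidal cells. Uqcrfs1, the Rieske iron-sulfur protein, rose by 0.89 ± 0.090 and 0.62 ± 0.090.

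Complex IV, cytochrome c oxidase, had the lowest share of rising subunits in IN P10, 12 of 17, and 11 of 17 rose in Pyr P12, as many as in complex V, with medians of 0.41 and 0.33. Several of its subunits are encoded by alternative genes for different tissues, and the 5 genes without a call in interneurons were all forms known from other tissues. They were Cox4i2, Cox7a1, Cox7b2, Cox8b and Cox8c, with log2 fold changes of -0.091 to 0.093. Cox7b2, a testis form, was not above background on any of the 12 arrays, so that its call in Pyr P12, counted among the 65, has no measured level behind it. Cox8b, a muscle form, was above background on 1 array. The ubiquitous forms Cox4i1, Cox6a1, Cox6b1, Cox7b and Cox8a rose in both populations, by 0.20 to 0.49 in interneurons and by 0.27 to 0.67 in pyramidal cells. Cox7a2, also ubiquitous, rose by 0.49 ± 0.084 in interneurons and had 0.14 ± 0.084 in pyramidal cells without a call (adjusted p = 0.168). Cox4i2 was the pyramidal gene that fell, with 8.07, 7.99 and 7.97 in Pyr P12, against 8.16, 8.08 and 8.34 in Pyr P0 (-0.18 ± 0.071, adjusted p = 0.0439), a change that did not pass when those 2 groups were fitted alone (adjusted p = 0.0804) and was lost without IN P0 replicate B or C, IN P10 replicate B, Pyr P0 replicate A or Pyr P12 replicate C. Cox5a and Cox5b, which have no alternative gene, rose by 0.39 ± 0.069 and 0.70 ± 0.080 in interneurons and by 0.56 ± 0.069 and 0.32 ± 0.080 in pyramidal cells. Ndufa4, named for complex I and found in complex IV, rose by 0.61 ± 0.13 and 0.57 ± 0.13.

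Cox6a2, the heart and skeletal muscle form of subunit 6a, had the largest change of the 89 genes in interneurons. It measured 10.25, 10.23 and 10.27 in IN P10, against 8.93, 9.03 and 9.07 in IN P0 (1.24 ± 0.10, adjusted p = 2.47e-07), a 2.36-fold change, and 10.00, 9.70 and 9.90 in Pyr P12, against 8.79, 8.75 and 9.18 in Pyr P0 (0.97 ± 0.10, adjusted p = 2.41e-06), and neither pair overlapped. Cox6a1, the ubiquitous form, changed by 0.35 ± 0.10 in interneurons and 0.35 ± 0.10 in pyramidal cells. The 5 myocyte markers, Myh6, Myh7, Myl2, Ckm and Tnnt2, averaged between 7.54 and 7.72 over the 12 arrays, with no group apart from the others. Cox6b2, known as a testis form, measured 8.02, 7.92 and 8.01 in IN P10, against 7.61, 7.53 and 7.55 in IN P0 (0.42 ± 0.080, adjusted p = 0.000635), close above background. In pyramidal cells Cox6b2 measured 7.88, 7.61 and 7.64 in Pyr P12, against 7.54, 7.65 and 7.82 in Pyr P0, with overlap and no call (adjusted p = 0.681).

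**Figure D3:**
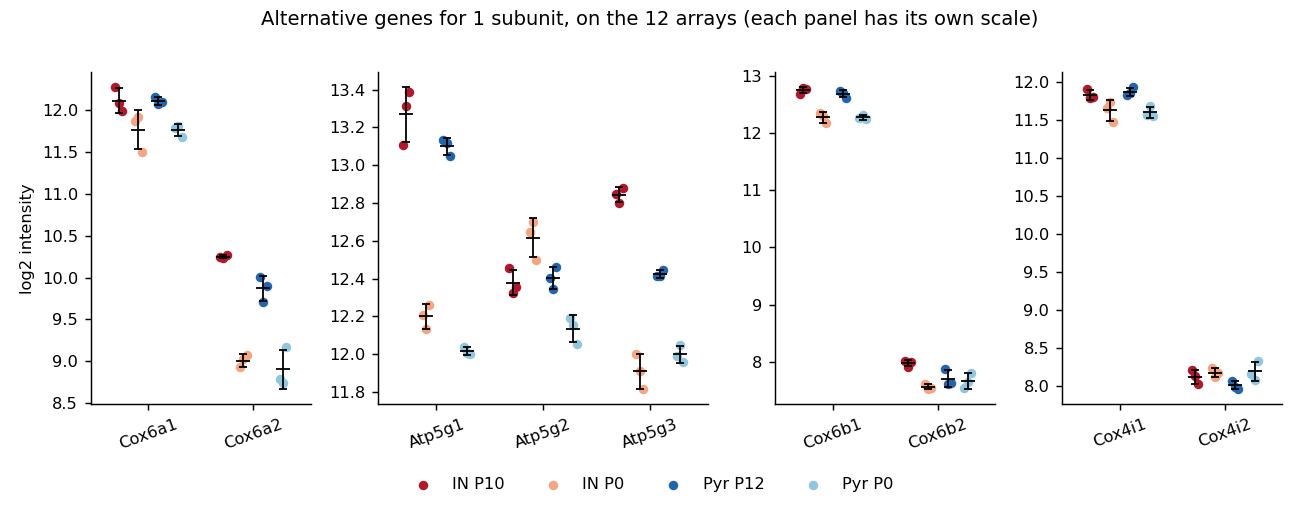
Log2 intensity of alternative genes for 1 subunit on each of the 12 arrays, with group means and SD (n = 3); probe sets differ in brightness, so groups are compared only within a gene. Cox6a2 and Atp5g1 are higher in both older groups, Atp5g3 is highest in IN P10, and Atp5g2 is highest in IN P0 and lowest in Pyr P0.

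Complex V, the ATP synthase, rose in 16 of 17 subunits in interneurons, with a median of 0.55, and in 11 of 17 in pyramidal cells, with a median of 0.33. The 5 subunits of the catalytic head and central stalk had medians of 0.50 and 0.11, and all 5 rose in IN P10, compared with 2 of the 5 in Pyr P12. Atp5b, the catalytic beta subunit, measured 13.83, 13.88 and 13.86 in IN P10, against 13.46, 13.48 and 13.45 in IN P0 (0.39 ± 0.048, adjusted p = 1.14e-05), with no overlap. Its pyramidal values were 13.51, 13.45 and 13.44 in Pyr P12, against 13.46, 13.34 and 13.42 in Pyr P0, which overlapped, with a difference of 0.061 (adjusted p = 0.305). Atp5a1, the alpha subunit, rose by 0.55 ± 0.063 in interneurons and 0.25 ± 0.063 in pyramidal cells. Atp5c1, the gamma subunit of the stalk, rose by 0.50 ± 0.066 in interneurons and had 0.037 ± 0.066 in pyramidal cells (adjusted p = 0.661). Atp5o, the oligomycin sensitivity conferral protein, measured 12.43, 12.29 and 12.35 in IN P10, against 11.89, 11.90 and 11.76 in IN P0 (0.50 ± 0.055, adjusted p = 3.94e-06). It had 11.73, 11.70 and 11.73 in Pyr P12, against 11.75, 11.82 and 11.76 in Pyr P0, a difference of -0.056 without a call (adjusted p = 0.413).

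Subunit c, which forms the rotor ring, is made from 3 genes whose mature proteins are the same. Atp5g1 measured 13.11, 13.31 and 13.39 in IN P10, against 12.21, 12.13 and 12.26 in IN P0 (1.07 ± 0.068, adjusted p = 2.05e-08), and 13.13, 13.12 and 13.05 in Pyr P12, against 12.04, 12.01 and 12.00 in Pyr P0 (1.08 ± 0.068, adjusted p = 1.21e-08), a change of 2.1-fold and 2.12-fold. Neither pair overlapped, but a dimmer second probe set of Atp5g1 had -0.13 and -0.16 with no call (adjusted p = 0.309 and 0.172). Atp5g3 measured 12.85, 12.80 and 12.88 in IN P10, against 12.00, 11.91 and 11.81 in IN P0 (0.93 ± 0.056, adjusted p = 1.10e-08), and 12.41, 12.41 and 12.45 in Pyr P12, against 11.99, 12.05 and 11.96 in Pyr P0 (0.42 ± 0.056, adjusted p = 1.85e-05). Both Atp5g1 and Atp5g3 rose, and Atp5g3 rose further in interneurons by 0.51 ± 0.079, adjusted p = 0.000232. Atp5g2 went the other way in interneurons, where it was the gene that fell among the 89, with 12.45, 12.32 and 12.36 in IN P10, against 12.65, 12.70 and 12.50 in IN P0 (-0.24 ± 0.065, adjusted p = 0.00758). In pyramidal cells Atp5g2 rose, with 12.40, 12.35 and 12.46 in Pyr P12, against 12.19, 12.15 and 12.06 in Pyr P0 (0.27 ± 0.065, adjusted p = 0.00309). No pair overlapped. Of 2 dimmer probe sets of Atp5g2, neither was called in interneurons (0.20 and -0.26), and 1 of them rose by 1.03 in pyramidal cells while the other was not called.

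Over the 17 genes with several probe sets, the 24 probe sets not used rose in 17 cases and fell in 2 in IN P10 against IN P0, and rose in 19 and fell in 1 in Pyr P12 against Pyr P0. Their medians were 0.51 and 0.40. The probe sets that fell belonged to Atp5l, subunit g of complex V, at -0.56 and -0.50 in the populations in that order, and to Ndufab1, the acyl carrier protein in complex I, at -0.36 in interneurons. The probe sets used rose by 0.53 for Atp5l and 0.84 for Ndufab1 in interneurons. Genes of this pathway have many processed copies in the genome, and which copy a short probe reads was not tested.

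Between the populations at birth the 89 genes differed little. In IN P0 against Pyr P0, 7 were higher (7.87%) and 1 was lower (1.12%), against 11.1% and 11.3% of all probe sets, with a median difference of 0.040. By the averages given above, each population carried more of the other's markers at birth than when older. The part of this in the difference at birth, or in the changes with age, was not tested. Cox5a, a subunit of complex IV, measured 11.78, 11.64 and 11.52 in IN P0, against 11.20, 11.14 and 11.02 in Pyr P0 (0.52 ± 0.069, adjusted p = 5.98e-05), with no overlap. Atp5g2, of the c subunit, measured 12.65, 12.70 and 12.50 in IN P0, against 12.19, 12.15 and 12.06 in Pyr P0 (0.48 ± 0.065, adjusted p = 7.01e-05), also with no overlap. Ndufs7, a core subunit of complex I, was higher by 0.32 ± 0.069, and Ndufa8, Ndufb8, Cox8a and Atp5d were higher by 0.18 to 0.27. Ndufv1 was the gene called lower, with a difference of -0.16 ± 0.055, at 11.04, 11.11 and 10.96 in IN P0, against 11.16, 11.26 and 11.17 in Pyr P0 (adjusted p = 0.0492), just inside the threshold. Lower calls numbered 0 without IN P0 replicate C, without any one of the IN P10 arrays, without Pyr P0 replicate A or B, or without Pyr P12 replicate A or C, 2 without IN P0 replicate A and 3 without Pyr P0 replicate C. The higher calls numbered 4 without IN P0 replicate A and 4 without IN P0 replicate B. Of 8 calls, 4 were made whichever array was left out.

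Between the older groups more of the genes stood apart. In IN P10 against Pyr P12, 47 of the 89 genes were higher and 8 lower, against 16.1% and 30.4% of all probe sets, with medians of 0.21 for the genes and -0.071 for all probe sets. Of all probe sets called there, 34.7% were higher, which was 54.1% after centring on the probe sets above background, and 54 of the genes were then higher and 3 lower. By complex, the higher and lower calls numbered 22 and 2 of 34 in complex I, 4 and 0 of 4 in complex II, 3 and 0 of 8 in complex III, 7 and 1 of 17 in complex IV and 9 and 1 of 17 in complex V. The medians were 0.32, 0.29, 0.16, 0.11 and 0.26 in the same order. No gene passed 2-fold. The myelin and precursor marker lists were also higher in IN P10, by the averages given above. The astrocyte list averaged higher in Pyr P12, but its genes went both ways. Slc1a2 (12.72 against 9.31) and Aldh1l1 (8.46 against 7.50) were higher in Pyr P12 than in IN P10. S100b (8.12 against 7.51) and Slc1a3 (8.33 against 7.97) were higher in IN P10. Gfap had no call, and Aqp4 and Gja1 were not above background.

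**Figure D4:**
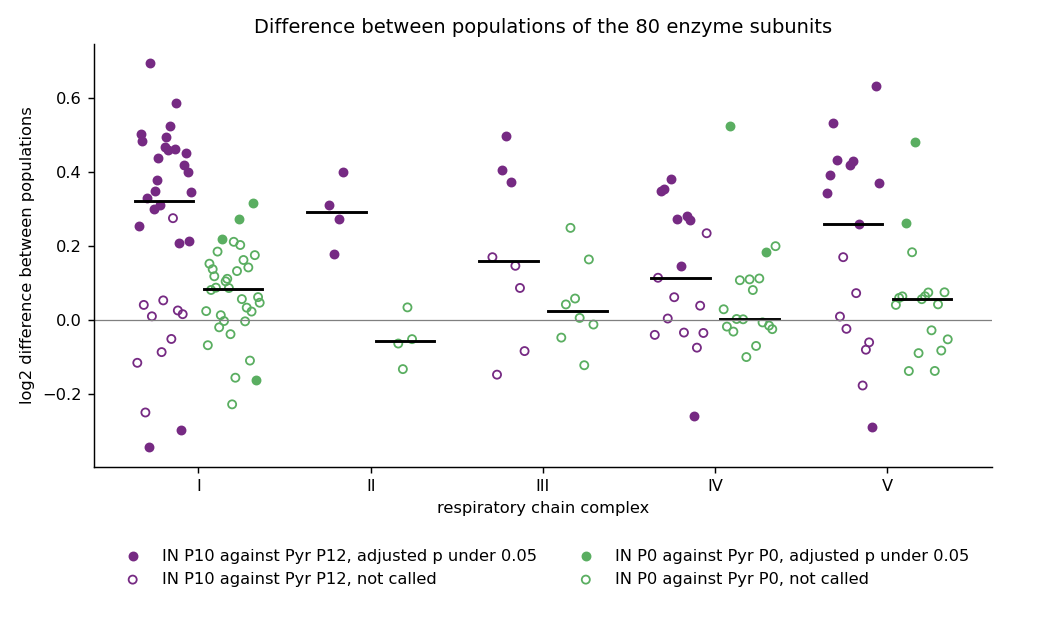
Log2 difference between the populations for the 80 subunits by complex, in IN P10 against Pyr P12 (purple, left in each pair) and IN P0 against Pyr P0 (green, right); filled points had an adjusted p under 0.05, open points did not, and bars mark medians. At birth most points are open and near 0, and in the older groups most of complex I and all of complex II lie above 0.

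The largest difference was that of Ndufa6 in complex I, with 11.56, 11.40 and 11.13 in IN P10, against 10.65, 10.68 and 10.67 in Pyr P12 (0.69 ± 0.10, adjusted p = 0.000108). Atp5o of complex V measured 12.43, 12.29 and 12.35 in IN P10, against 11.73, 11.70 and 11.73 in Pyr P12 (0.63 ± 0.055, adjusted p = 6.02e-07). Ndufs1, a core subunit of complex I, measured 11.36, 11.22 and 11.22 in IN P10, against 10.74, 10.70 and 10.60 in Pyr P12 (0.59 ± 0.079, adjusted p = 4.06e-05). None of these 3 pairs overlapped, and the changes were 1.62-fold, 1.55-fold and 1.5-fold. Uqcrc1 of complex III was higher by 0.50 ± 0.061 and Cox6a2 of complex IV by 0.38 ± 0.10. Of the 5 genes of the catalytic head and central stalk of complex V, Atp5a1, Atp5b, Atp5c1 and Atp5d were higher by 0.34 to 0.53, and Atp5e, the epsilon subunit, had 0.0086 ± 0.080 without a call (adjusted p = 0.94). The genes lower in IN P10 were led by Ndufa5, with 10.23, 10.33 and 10.36 in IN P10, against 10.64, 10.71 and 10.59 in Pyr P12 (-0.35 ± 0.070, adjusted p = 0.00117), and without overlap. Ndufaf7, an assembly factor, had a difference of -0.34 (9.44, 9.34 and 9.45 in IN P10, against 9.73, 9.71 and 9.81 in Pyr P12) and Ndufs5 one of -0.30 (10.13, 10.03 and 9.99 in IN P10, against 10.29, 10.49 and 10.26 in Pyr P12). The others were the assembly factors Ndufaf3 and Ndufaf4, the paralogue Cox7a2l, Atp5mpl of complex V and Cox7b2, which is at background. Lower calls numbered 4 without IN P10 replicate B, without IN P10 replicate C or without Pyr P12 replicate C.

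The change with age differed between the populations by a test of the difference itself, the change in interneurons minus that in pyramidal cells. It was positive and called for 28 of the 89 genes and negative for 4, against 11.8% and 20.3% of all probe sets, with medians of 0.17 and -0.067. Of all probe sets called, 36.7% were positive, which was 52.2% after centring on the probe sets above background, and 41 genes were then positive and 2 negative. Called positive differences were found in 11 of 34 subunits of complex I, 3 of 4 of complex II, 2 of 8 of complex III, 3 of 17 of complex IV and 6 of 17 of complex V. The largest was that of Ndufa6 (0.71 ± 0.15, adjusted p = 0.00226), followed by Ndufb6 (0.65 ± 0.23, adjusted p = 0.0436) and Ndufs1 (0.59 ± 0.11, adjusted p = 0.00119), all of complex I. Ndufb6, a membrane arm subunit, measured 12.90, 12.47 and 12.28 in IN P10, against 12.04, 11.98 and 11.57 in IN P0, and 12.20, 11.83 and 12.12 in Pyr P12, against 12.20, 12.00 and 11.85 in Pyr P0, so that the interneuron groups stood apart and the pyramidal groups overlapped. The negative ones were Ndufa5 (-0.53 ± 0.099, adjusted p = 0.00104), Atp5g2 (-0.51 ± 0.092, adjusted p = 0.000818), Cox8a (-0.26 ± 0.075, adjusted p = 0.0172) and Cox7a2l (-0.26 ± 0.082, adjusted p = 0.028). Across the 89 genes the changes in the 2 populations, which share no arrays, correlated at r = 0.62 (Spearman 0.56), and across all probe sets at r = 0.67. The change was larger in interneurons for 61 of the 89 genes and for 8584 of the 22961 probe sets.

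Genes that assemble or supply the complexes moved mostly the same way. For the lists here and below, the shares over all probe sets were 22.3% higher and 23.1% lower in interneurons, and 33.0% and 21.7% in pyramidal cells. Of 7 complex I assembly factors, 6 rose in IN P10 and 4 in Pyr P12, and none fell. Of 37 other assembly factors, 27 rose and 0 fell in interneurons, and 24 rose and 3 fell in pyramidal cells. The largest changes were those of Tmem126b, a complex I assembly factor, at 1.61 in interneurons and 1.59 in pyramidal cells (adjusted p = 4.98e-08 and 4.09e-08). Among 18 partners of the chain, 13 rose in interneurons and 10 in pyramidal cells, and none fell. Cycs, cytochrome c, measured 13.56, 13.64 and 13.66 in IN P10, against 12.62, 12.49 and 12.50 in IN P0 (1.08 ± 0.073, adjusted p = 3.71e-08). Its pyramidal change was 0.76 ± 0.073. Of 25 genes of the citric acid cycle and pyruvate dehydrogenase, 19 rose and 1 fell in interneurons, with a median of 0.77, and 22 rose and 2 fell in pyramidal cells, with a median of 0.59. Fh1, fumarase, rose by 1.81 ± 0.12 and Pdha1, a subunit of pyruvate dehydrogenase, by 1.62 ± 0.054 in interneurons. Idh2, an isocitrate dehydrogenase, went the other way, with -1.01 ± 0.089 in interneurons and -1.90 ± 0.089 in pyramidal cells. The pyramidal change of Idh2 was the largest of the list there. This list also counts the kinases that inhibit pyruvate dehydrogenase, among which Pdk3 rose by 1.59 ± 0.093 in pyramidal cells. Of 21 mitochondrial carriers and porins, 14 rose and 1 fell in IN P10, and 15 rose and 2 fell in Pyr P12. Ckmt1, the mitochondrial creatine kinase, measured 11.18, 11.12 and 11.25 in IN P10, against 8.20, 8.38 and 7.98 in IN P0 (adjusted p = 9.11e-11), with no overlap, and rose by 2.08 ± 0.10 in pyramidal cells.

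Ribosomal proteins divided by compartment. Of 77 mitochondrial ribosomal proteins, 46 rose and 2 fell in IN P10, with a median of 0.31, and 48 rose and 5 fell in Pyr P12, with a median of 0.27. Of 67 genes named as cytosolic ribosomal proteins, 1 rose and 55 fell in interneurons and 3 rose and 53 fell in pyramidal cells, with medians of -0.63 in both. The name search also took in the S6 kinase genes, and without them 0 of 61 rose and 51 fell in each population.

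**Figure D5:**
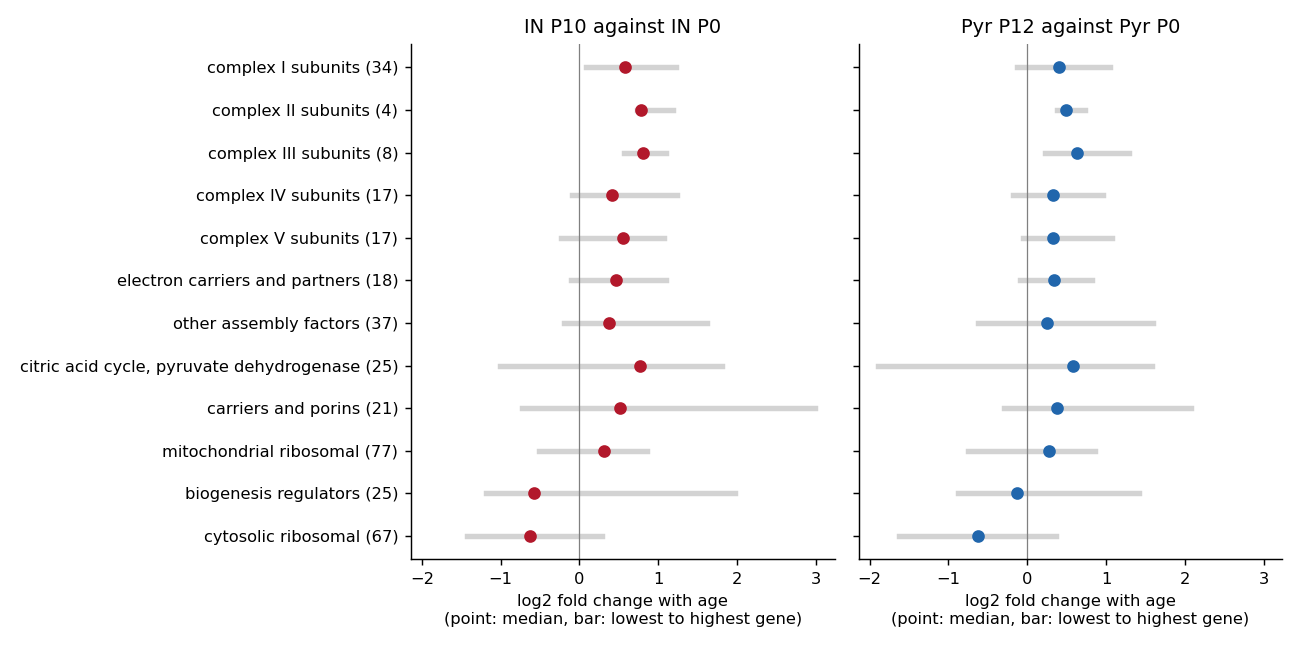
Median (point) and range from the lowest to the highest gene (grey bar) of the log2 fold change with age in IN P10 against IN P0 (left) and Pyr P12 against Pyr P0 (right), with the number of genes measured in brackets. The medians of the 5 complexes and the citric acid cycle lie right of 0 and that of the cytosolic ribosomal proteins left of it in both panels, while several ranges cross 0.

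Regulators of mitochondrial biogenesis moved in both directions. Of 25, 7 rose and 15 fell in IN P10, with a median of -0.58, and 7 rose and 10 fell in Pyr P12, with a median of -0.12. The share that rose was near that of all probe sets, which was 22.3% in interneurons and 33.0% in pyramidal cells. The share that fell was above that of all probe sets, which was 23.1% in interneurons and 21.7% in pyramidal cells. Ppargc1a, the coactivator PGC-1alpha, measured 12.59, 12.70 and 12.76 in IN P10, against 10.89, 10.46 and 10.80 in IN P0 (1.97 ± 0.10, adjusted p = 2.97e-09). In pyramidal cells it measured 10.21, 10.29 and 10.02 in Pyr P12, against 8.79, 8.75 and 8.88 in Pyr P0 (1.37 ± 0.10, adjusted p = 6.85e-08). None of these groups overlapped. Ppargc1a was higher in interneurons at both ages, by 2.51 ± 0.10 in IN P10 against Pyr P12 and by 1.91 ± 0.10 in IN P0 against Pyr P0, where 8 of the 89 genes were called. Esrrg, an estrogen-related receptor, measured 10.15, 10.10 and 10.20 in IN P10, against 8.16, 8.31 and 8.20 in IN P0 (1.93 ± 0.092, adjusted p = 1.56e-09). Its pyramidal values, 9.47, 9.52 and 9.23 in Pyr P12, against 9.10, 9.46 and 9.30 in Pyr P0, overlapped (0.12 ± 0.092, adjusted p = 0.3). Ppargc1b, the related coactivator, rose by 0.91 ± 0.088 in interneurons and 1.42 ± 0.088 in pyramidal cells. The motif-binding factors Nrf1 and Gabpa, named here after their values were seen, fell by 0.76 and 0.79 in interneurons and by 0.44 and 0.31 in pyramidal cells, and Esrra rose by 0.40 and 0.38.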

How the data were processed

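Sorted cells of 4 groups were hybridized to Affymetrix Mouse Gene 1.0 ST arrays, 12 in all. The authors background-corrected, quantile-normalized and summarized the scans with RMA, and the log2 values per probe set were used as deposited, with 0 missing. The software versions, annotation release and genome build behind them are not given in the sources used here. RMA puts the probe values of the arrays on 1 common distribution before summarizing, so changes are relative to the bulk of transcripts, and array number limits the precision. The summarized values still differed somewhat, with array means of 8.43 to 8.47 in Pyr P12 and 8.37 to 8.39 in the other groups.

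The test covered the 22961 of 28192 probe sets that carry a gene symbol (21640 carry 1 and 1321 several) in a single fit, with 4 groups and no block, in limma 3.58.1 (R 4.3.3). Calls were made at an adjusted p under 0.05, Benjamini-Hochberg. Genes, lists and comparisons were chosen with earlier results of these data known. Named were the 3 most changed genes in each direction without overlap, genes past 2-fold, families with several genes, complex II and the catalytic core. Of the other lists, only some of the 2 most changed genes were named, and none of the ribosomal lists. SD and SE are from 3 arrays per group and from the fit. Replicates are labelled biological, and p-values measure the spread between these arrays. Scripts were tested on simulated arrays. Alternatives were SAM (the methods' test), fits of 2 groups, limma-trend, a replicate block, other probe set choices, 3 scalings, a stricter threshold and each array left out. Promoters are from RefSeq (GRCm38.p6), and figures were drawn with matplotlib.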

Additional observations from a re-analysis of the deposited data

Results flagged for a closer look

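The change with age differed between interneurons and pyramidal cells for 20 of the 41 named genes. The test was that of the difference in limma with Benjamini-Hochberg adjustment over all 22961 probe sets. Some of the 41 were named for the size of this difference, so their count is not a rate. Of all 89 genes, 31.5% had a positive and 4.49% a negative call, against 11.8% and 20.3% of all probe sets. Each value below is the change in IN P10 against IN P0 minus that in Pyr P12 against Pyr P0 on the log2 scale. In complex I the differences were 0.71 ± 0.15, adjusted p = 0.00226 for Ndufa6, 0.65 ± 0.23, adjusted p = 0.0436 for Ndufb6, 0.59 ± 0.11, adjusted p = 0.00119 for Ndufs1 and 0.56 ± 0.078, adjusted p = 9.04e-05 for Ndufv1, and -0.53 ± 0.099, adjusted p = 0.00104 for Ndufa5. In complex II they were 0.37 ± 0.089, adjusted p = 0.00543 for Sdha, 0.31 ± 0.080, adjusted p = 0.00882 for Sdhb and 0.45 ± 0.14, adjusted p = 0.0236 for Sdhd. Uqcrc1 of complex III had 0.44 ± 0.087, adjusted p = 0.00158. In complex IV, Cox5b had 0.39 ± 0.11, adjusted p = 0.0179, Cox6b2 0.37 ± 0.11, adjusted p = 0.0226 and Cox7a2 0.35 ± 0.12, adjusted p = 0.0386, while Cox8a had -0.26 ± 0.075, adjusted p = 0.0172 and the paralogue Cox7a2l -0.26 ± 0.082, adjusted p = 0.028. In complex V, the head and stalk genes Atp5a1, Atp5b and Atp5c1 had 0.30 ± 0.089, adjusted p = 0.0195, 0.33 ± 0.068, adjusted p = 0.00213 and 0.47 ± 0.093, adjusted p = 0.00161, Atp5o had 0.56 ± 0.078, adjusted p = 0.000101 and Atp5g3 0.51 ± 0.079, adjusted p = 0.000232. Atp5g2 was the gene with opposite calls, with -0.51 ± 0.092, adjusted p = 0.000818. Myelin and astrocyte markers both averaged above their level at birth in the older arrays of both populations, although the astrocyte marker Slc1a3 fell in both. The part of these markers in the differences was not tested.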

How the results depend on the processing

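The counts of genes that rose with age held under the alternatives, from 72 to 82 in interneurons and from 60 to 71 in pyramidal cells. Counts that moved by over 1.5 times were as follows. At an adjusted p under 0.01, 14 positive and 2 negative differences of the change with age were called, 4 higher and 0 lower in IN P0 against Pyr P0, 3 lower in IN P10 against Pyr P12 and 0 lower in Pyr P12 against Pyr P0. With arrays centred on the median of probe sets above background, negative differences of the change numbered 2, and lower calls 3 in IN P10 against Pyr P12, 2 in Pyr P12 against Pyr P0 and 0 in IN P0 against Pyr P0. Lower calls in IN P10 against Pyr P12 numbered 5 with centring on all probe sets, 4 after a second quantile normalization and 4 among subunits alone. The lower call in Pyr P12 against Pyr P0 was lost (0) with 2 groups alone, limma-trend and SAM. In IN P0 against Pyr P0, limma-trend gave 11 higher, and lower calls numbered 2 with 1 probe set per gene, the filter on dim probe sets or the lowest-mean probe set, and 0 with 2 groups alone or with all probe sets. Why these counts moved was not tested, except that fewer genes can be called at a stricter threshold and among subunits alone.

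Leaving out 1 array gave 4 to 10 higher and 0 to 3 lower in IN P0 against Pyr P0, 39 to 47 higher and 4 to 9 lower in IN P10 against Pyr P12, 0 to 1 lower in Pyr P12 against Pyr P0, and 19 to 32 positive and 3 to 6 negative differences of the change. Of the calls, 72 of 80, 62 of 66, 39 of 55 and 4 of 8 were made in all 12 such fits in interneurons with age, pyramidal cells with age, the older groups and at birth, in that order. Atp5g1 had -0.13 in interneurons and -0.16 in pyramidal cells, both without a call, when its dimmer probe set stood for it. The labels give no shared origin for arrays of 1 letter. Over all probe sets, 6 of 18 same-letter pairs had correlated deviations over 0.1 (range -0.18 to 0.19), and in 9 of the 18 comparisons of an array with another group the best match had its own letter, so the arrays were not treated as paired. In the mean of the 89 genes, however, replicate A was the highest and C the lowest in all 4 groups. A replicate block gave 79 higher and 1 lower in IN P10 against IN P0, 67 and 1 in Pyr P12 against Pyr P0, 47 and 8 in IN P10 against Pyr P12, 10 and 2 in IN P0 against Pyr P0, and 32 and 6 differences of the change.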
